A study of Mus musculus with 72 samples.

Results

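The Peg3 imprinted domain is a cluster of genes on mouse chromosome 7, of which 4 were examined here: Peg3, Zim1, Usp29 and Zfp264. They were taken from the count table by matching these symbols to its Ensembl identifiers, and are 4 of 55416 genes. They were chosen by earlier values of these data, because the counts of Peg3 and Zim1 in fat were higher in restricted mice on a high fat diet (CR20-HFD) than in restricted mice on the control diet (CR20-CTRL). That contrast is therefore described here without a test. The libraries came from 24 male FVB.129P2 mice, 6 in each of 4 groups, and each mouse gave epididymal white adipose tissue (eWAT), liver and pituitary, for 72 libraries. Dams of the FED groups ate freely, and dams of the CR20 groups received 20% fewer calories from embryonic day E15 through lactation. All offspring were weaned at PND21, and from 8 weeks of age ate a diet of 10% fat (CTRL) or of 45% fat (HFD) for 10 weeks by the study's description of the sequenced males, where the labels give 10 or 16 weeks. The 4 groups were thus FED-CTRL, FED-HFD, CR20-CTRL and CR20-HFD. The model covers males of a single strain, and the sources used here do not say which mice shared a dam, so p-values measure the spread between mice, some of which may be littermates.

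Genomic imprinting leaves a gene active on the chromosome copy inherited from a single parent. In this domain the mouse genes Peg3 and Usp29 are transcribed from the paternal copy and Zim1 mainly from the maternal copy, under a shared control region that lies at the start of Peg3 and is methylated on the maternal copy. Peg3 encodes a large zinc-finger protein that binds DNA and has been studied for its part in growth, maternal care and fat storage, Zim1 encodes a zinc-finger protein, Usp29 encodes a ubiquitin-specific protease, and Zfp264 is annotated in mouse as a transcribed pseudogene of a zinc-finger gene.

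On GRCm39, Peg3 (ENSMUSG00000002265) spans chr7:6706882-6733468 on the minus strand and Zim1 (ENSMUSG00000002266) spans chr7:6674268-6699500, also on the minus strand. Usp29 (ENSMUSG00000051527) spans chr7:6733577-6970218 on the plus strand, and Zfp264 (ENSMUSG00000109176) spans chr7:6984202-6993267 on the plus strand. Peg3 and Usp29 start back to back, and their annotated spans do not overlap. The 108 bases between the starts, outside all annotated exons, are shown because both promoters share them. They lie at chr7:6733469-6733576 and are written 5′ to 3′ on the plus strand, from the GRCm39 genome.
Peg3 and Usp29 starts: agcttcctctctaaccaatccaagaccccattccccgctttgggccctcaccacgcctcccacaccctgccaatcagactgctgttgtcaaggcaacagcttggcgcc
The 200 bases upstream of Zim1, at chr7:6699501-6699700 and written on the minus strand, are shown for comparison, because Zim1 starts 34.0 kb away from Peg3 and is read from the other parental copy.
Upstream of Zim1: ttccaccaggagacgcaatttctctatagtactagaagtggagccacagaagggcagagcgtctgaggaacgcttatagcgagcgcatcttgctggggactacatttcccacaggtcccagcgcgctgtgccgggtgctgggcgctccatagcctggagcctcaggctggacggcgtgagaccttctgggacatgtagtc
The stretch shared by Peg3 and Usp29 was 59.3% G or C and held 3 CG pairs, and the stretch upstream of Zim1 was 58.5% G or C and held 11. Among 21757 protein-coding genes, 55.5% held as many CG pairs or more in the 108 bases before their start, and 27.8% held as many as Zim1 in 200 bases. Neither stretch held GCCATCTT, the core that the zinc-finger protein YY1 is known to bind, on either strand (reverse complement AAGATGGC). That core was present in 0.501% of all 108-base stretches and in 1.01% of all 200-base stretches.

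The first intron of Peg3, chr7:6729574-6733256, held the YY1 core 11 times in 3683 bases, each time on the strand of Peg3. Of the 21757 protein-coding genes, 23.3% held it at least once in as many bases from their start. It was held 11 times or more by 2 genes (0.00919%), Peg3 itself included. In as many bases from the start of Zim1 it was found 0 times. The repeat is printed because YY1 sites at this place are the known landmark of the control region. Only some of the 11 sites are printed below, on the minus strand, with the core in capitals. Those printed all have tggc before the core, and some of the sites left out do not.
Site 1, chr7:6732577-6732606: acccagttggcGCCATCTTggagggtggag
Site 2, chr7:6732471-6732500: gcccgcttggcGCCATCTTgaaatgaccgc
Site 3, chr7:6731868-6731897: cccatcctggcGCCATCTTtcctggccaag
Site 5, chr7:6731439-6731468: cccaatttggcGCCATCTTtgccagcaata
Site 10, chr7:6730411-6730440: ctccctctggcGCCATCTTtgttggccaca
The sites were counted in the reference sequence only, and binding and methylation were not measured in these mice.

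Library totals ranged from 9842813 to 27601208 counts. The summed level of 8 adipocyte markers, in CPM (counts scaled to the library total), was 10153 to 35932 in eWAT, at most 43.1 in liver and at most 166 in pituitary, and the hepatocyte and pituitary hormone markers were at their highest in the tissue named by the label. In eWAT 4 libraries stood apart. CR20-CTRL mice 4 and 5 and CR20-HFD mouse 6 held 134, 54.9 and 26.8 CPM of epididymis and testis markers, where the 20 libraries that did not stand apart held at most 0.224. CR20-CTRL mouse 5 and FED-HFD mouse 23 had adipocyte markers at 11157 and 10153 CPM, where the same 20 held at least 22082. FED-HFD mouse 23 also had macrophage markers at 10186 CPM, where they held at most 3859. In liver 6 libraries had 1.56% to 4.15% of their counts on mitochondrial genes, and the other 18 had 4.75% to 8.03%. Values without these libraries are given beside the results below.

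Levels per length fell in the order Peg3, Zim1, Usp29 in eWAT and pituitary. The unit is RPKM, counts per kilobase of exon, scaled like CPM to the library. In pituitary the mean CPM was 17.4 for Zim1 and 16.3 for Usp29. The gap between these 2 genes there thus rests mainly on annotated exon lengths of 8189 and 18078 bases. In pituitary Peg3 was at 31.8 ± 5.31 RPKM (SD, n = 24), above 95.7% of the genes tested there. In eWAT it was at 13.7 ± 6.13 RPKM (SD, n = 24), above 85.5% of the genes tested, and in liver at 1.80 ± 1.03 RPKM (SD, n = 24), above 46.8%. Zim1 was at 2.13 ± 0.562 RPKM (SD, n = 24) in pituitary and 0.746 ± 0.453 RPKM (SD, n = 24) in eWAT. Usp29, which shares its promoter stretch with Peg3, was at 0.899 ± 0.156 RPKM (SD, n = 24) in pituitary and at 0.0199 ± 0.0164 RPKM (SD, n = 24) in eWAT, from 1 to 22 counts a library. Peg3 therefore exceeded Zim1 per length by 11.8 to 31.1 times in single eWAT libraries, with a median of 20.1, and by 9.71 to 23.4 times in pituitary, with a median of 15.5. The 2 ranges overlapped. Peg3 exceeded Usp29 by 20.6 to 59.6 times in pituitary.

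Pituitary held more Peg3 and Zim1 than eWAT in edgeR's quasi-likelihood test over all 72 libraries, and more Usp29 by its counts. Levels between tissues are compared per gene, in CPM, and a gene was called at an adjusted p under 0.055 when its log2 fold change (log2FC) was 0.58 or more in either direction, the limits that the study's methods state. Peg3 ran from 321 to 589 CPM in pituitary and from 65.2 to 397 in eWAT, higher in the pituitary of 23 of 24 mice, by a log2FC of 1.40 ± 0.18 (SE), which is 2.64-fold (adjusted p = 1.94e-10, edgeR). Zim1 was higher in the pituitary of 24 of 24 mice, by a log2FC of 1.77 ± 0.14 (SE), which is 3.41-fold (adjusted p = 1.26e-17, edgeR). Usp29 differed by far more. Its lowest pituitary library, at 10.9 CPM, lay above its highest eWAT library, at 1.19 CPM. In eWAT Usp29 had 1 to 22 counts a library and did not pass the filter on low counts, which it passed in pituitary. Its log2FC of 5.72 ± 0.18 (SE), which is 52.6-fold, is therefore a description without a test, and the fold is imprecise. The log2FC of Usp29 thus exceeded that of Peg3, whose start lies on the other side of the 108 bases printed above, although the difference between the 2 genes was not tested. Peg3 in eWAT did not overlap with Peg3 in liver, whose highest library was at 55.0 CPM, and the log2FC was 2.19 ± 0.19 (SE), or 4.57-fold (adjusted p = 4.88e-17, edgeR). Between pituitary and liver it was 3.59 ± 0.20 (SE), or 12.1-fold (adjusted p = 1.95e-26, edgeR). Without the 4 eWAT and the 6 liver libraries the log2FC between pituitary and eWAT was 1.41 for Peg3, 1.87 for Zim1 and 5.82 for Usp29, and that of Peg3 was 3.31 between pituitary and liver and 1.91 between eWAT and liver. The background is high here, since 70.3% of 19210 genes were called between pituitary and eWAT, 76.5% between pituitary and liver and 66.1% between eWAT and liver.

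**Figure D1:**
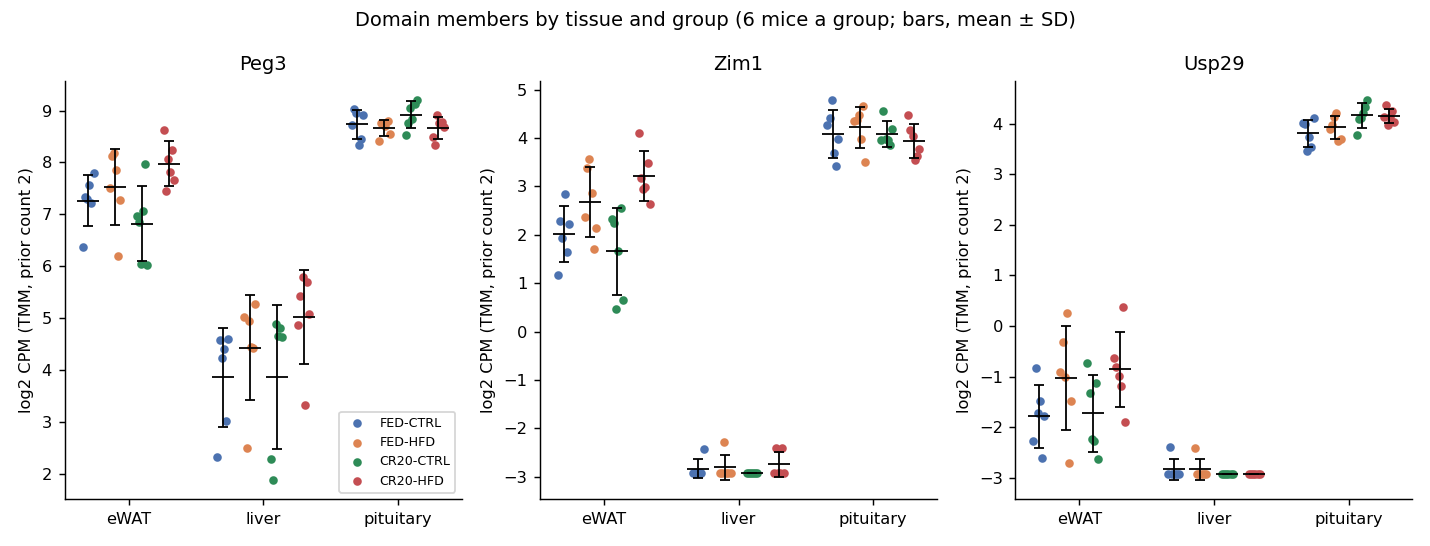
Log2 CPM of Peg3, Zim1 and Usp29 (vertical axes, TMM-scaled, prior count of 2) in eWAT, liver and pituitary (horizontal axes). Each point is a mouse, colours are the 4 groups, and black bars are the mean ± SD over 6 mice. Peg3 is highest in pituitary and lowest in liver, where 6 mice lie below the others, and the liver points of Zim1 and Usp29 are libraries with 0 or 1 count.

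Zim1 and Usp29 were at or under the floor of detection in every liver library. Zim1 had 4 counts in all over 24 liver libraries and Usp29 had 2, with at most 1 count in a library, where the floor of 3 counts corresponds to 0.148 to 0.333 CPM. No fold is given against liver for these genes. Zfp264, the pseudogene, had few counts in every tissue, with at most 11 counts in an eWAT library, 16 in a liver library and 6 in a pituitary library. It passed the filter on low counts in no tissue. That filter left Peg3 and Zim1 in eWAT, Peg3 in liver, and Peg3, Zim1 and Usp29 in pituitary, among 15964, 13787 and 16657 genes tested.

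In eWAT, the contrast that chose the members showed Peg3 and Zim1 both higher in CR20-HFD than in CR20-CTRL. Peg3 ranged from 65.2 to 251 CPM in CR20-CTRL, with a median of 120, and from 175 to 397 in CR20-HFD, with a median of 247. The groups overlapped through a single mouse, CR20-CTRL mouse 48 at 251 CPM, and all 6 CR20-HFD mice lay above the CR20-CTRL median. Zim1 ranged from 1.28 to 5.77 CPM in CR20-CTRL, with a median of 3.86, and from 6.14 to 17.1 in CR20-HFD, with a median of 8.34. The 2 groups did not overlap for Zim1. The fitted log2FC was 1.05 ± 0.32 (SE) for Peg3, which is 2.07-fold, and 1.47 ± 0.38 (SE) for Zim1, which is 2.77-fold. As background to this choice, 34 of 15964 genes (0.213%) had a log2FC above 1 in this contrast, 11 (0.0689%) had all CR20-HFD mice above all CR20-CTRL mice, and 0 (0%) were called. Nothing is read from those shares, since this contrast chose the genes.

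The same contrast is described further by animal number and by library. In mice numbered under 20 (2 CR20-HFD and 2 CR20-CTRL), from 20 to 39 (2 and 1) and from 40 (2 and 3), CR20-HFD less CR20-CTRL was 1.13, 1.89 and 0.93 on the log2 scale for Peg3 and 1.35, 2.49 and 1.44 for Zim1. These are the values that chose the genes, in few mice, and nothing is drawn from them. Without the 4 libraries that stood apart, the log2FC was 0.87 ± 0.34 (SE) for Peg3 and 1.51 ± 0.41 (SE) for Zim1. CR20-HFD mouse 6, which held epididymis and testis markers, was also the highest mouse for both genes, at 397 and 17.1 CPM, and with each mouse left out in turn the log2FC ran from 0.90 to 1.38 for Peg3 and from 1.24 to 1.68 for Zim1, lowest without mouse 6 and highest without CR20-CTRL mouse 48. Usp29 had 1 to 10 counts per eWAT library in CR20-CTRL and 3 to 22 in CR20-HFD, with 26 and 54 counts in all. Those groups overlapped, and with so few counts Usp29 was not tested across genes.

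On the FED side neither gene was called. Peg3 ranged from 82.8 to 224 CPM in FED-CTRL, with a median of 159, and from 73.6 to 290 in FED-HFD, with a median of 206. Zim1 ranged from 2.14 to 7.03 CPM in FED-CTRL, with a median of 4.12, and from 3.17 to 11.7 in FED-HFD, with a median of 6.12. Both pairs of groups overlapped. The log2FC of FED-HFD against FED-CTRL was 0.33 ± 0.32 (SE) for Peg3 (adjusted p = 0.550, edgeR) and 0.73 ± 0.38 (SE) for Zim1 (adjusted p = 0.225, edgeR), in a comparison where 8.01% of genes were called. FED-HFD mouse 23, rich in macrophage markers and poor in adipocyte markers, was the lowest of its group for both genes. Without the 4 libraries the log2FC of Zim1 was 0.89 ± 0.35 (SE) (adjusted p = 0.126, edgeR) and that of Peg3 was 0.51 ± 0.30 (SE) (adjusted p = 0.340, edgeR). The kind of test that the study's methods name, voom of limma with quality weights, was rerun here over all eWAT libraries. It called Zim1 at 1.01 ± 0.30 (SE) (adjusted p = 0.0165, limma), a gene that the paper's main text does not name. For Usp29, at 26 counts in all in FED-CTRL and 50 in FED-HFD, the difference was 0.76 on the log2 CPM scale (exact permutation test, two-sided, p = 0.149).

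Maternal restriction gave no call for Peg3 or Zim1 on either diet. These comparisons each share a group with the contrast that chose the genes, so their values are not independent of it. On the control diet the log2FC of CR20-CTRL against FED-CTRL was -0.35 ± 0.32 (SE) for Peg3 (adjusted p = 0.943, edgeR) and -0.25 ± 0.38 (SE) for Zim1 (adjusted p = 0.987, edgeR), and 0% of genes were called. On the high fat diet the log2FC of CR20-HFD against FED-HFD was 0.38 ± 0.32 (SE) for Peg3 (adjusted p = 0.449, edgeR) and 0.48 ± 0.37 (SE) for Zim1 (adjusted p = 0.398, edgeR), and 9.73% of genes were called. Without the 4 libraries that stood apart these last values were 0.05 ± 0.31 (SE) and 0.10 ± 0.36 (SE), and with a measure of long against short transcripts as a covariate they were 0.61 ± 0.33 (SE) and 0.72 ± 0.40 (SE). The r of that measure within groups was 0.40 with Peg3 and 0.40 with Zim1 in eWAT. On the control diet the values were -0.31 ± 0.32 (SE) for Peg3 and -0.53 ± 0.39 (SE) for Zim1 when the 4 libraries were left out. Single mice also moved these values. When 1 mouse at a time was omitted the log2FC on the control diet ran from -0.68, without CR20-CTRL mouse 48, to -0.21, without CR20-CTRL mouse 49, for Peg3, and from -0.47, without CR20-CTRL mouse 48, to -0.05, without FED-CTRL mouse 24, for Zim1. On the high fat diet it ran from 0.21, without FED-HFD mouse 23, to 0.51, without FED-HFD mouse 12, for Peg3, and from 0.25, without CR20-HFD mouse 6, to 0.70, without FED-HFD mouse 12, for Zim1. The diet difference in CR20 mice exceeded that in FED mice by a log2FC of 0.72 ± 0.45 (SE) for Peg3 and 0.74 ± 0.53 (SE) for Zim1, and by 0.36 ± 0.45 (SE) and 0.63 ± 0.53 (SE) without the 4 libraries, a description that again rests on the contrast used to choose them.

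**Figure D2:**
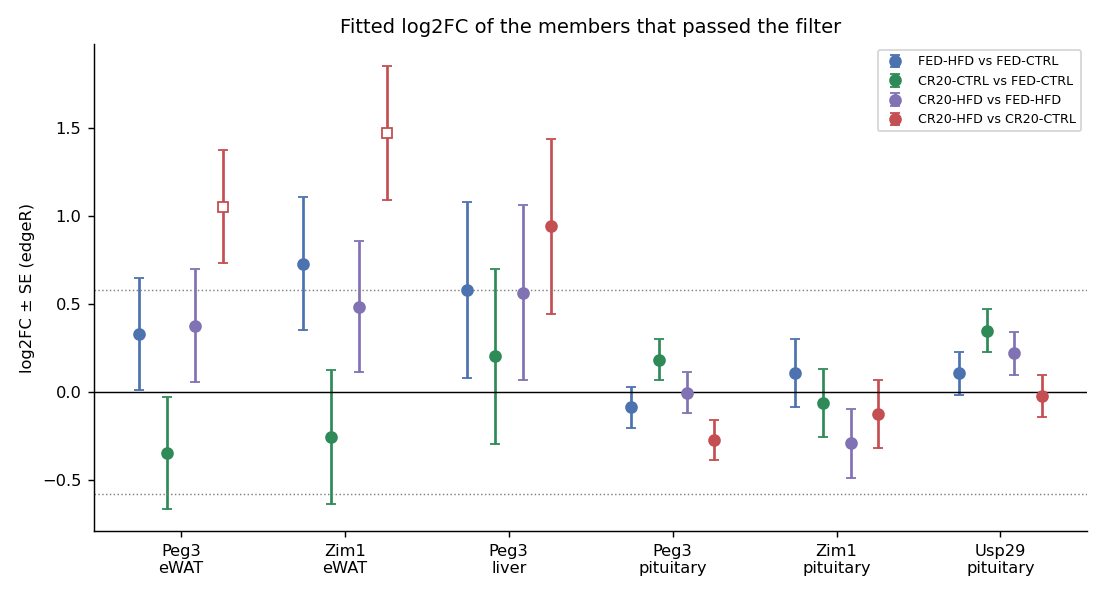
Fitted log2FC ± SE (vertical axis, edgeR) of each member that passed the filter, by tissue (horizontal axis). Colours are the 4 comparisons, open squares mark the contrast that chose the members, and dotted lines mark the limit of 0.58. The open squares, at 1.05 and 1.47, lie above all other points, and the pituitary values lie between -0.29 and 0.35.

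Peg3 and Zim1 varied together from mouse to mouse in eWAT. After the mean of each group was taken out of log2 CPM, Pearson's r between them was 0.87 over 24 mice (permutation within groups, two-sided, p = 1e-05, the smallest that 100000 resamples can give, Benjamini-Hochberg adjusted 6e-05 over 6 pairs). Spearman's rho was 0.89 (permutation p = 1e-05, adjusted 6e-05). Without the mice farthest from the median of Peg3, numbers 23 and 48, r was 0.86. The relation was present in every group, with r of 0.82 in FED-CTRL, 0.93 in FED-HFD, 0.88 in CR20-CTRL and 0.80 in CR20-HFD, each over 6 mice, and r was 0.90 without the 4 libraries that stood apart. Of 15963 other genes tested in eWAT, Zim1 had the highest r with Peg3. The next were Acer2, an alkaline ceramidase, at 0.86, Tek, the angiopoietin receptor of blood vessel endothelium, at 0.83, Spaar, a small regulatory protein, at 0.83, Ctcfl, a paralogue of the insulator protein CTCF, at 0.82, and Wwtr1, the transcriptional coactivator TAZ, at 0.82. In all 122 genes had an r above 0.7. Zim1 also had the highest r without the 4 libraries, at 0.90, and 118 genes then had an r above 0.7.

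**Figure D3:**
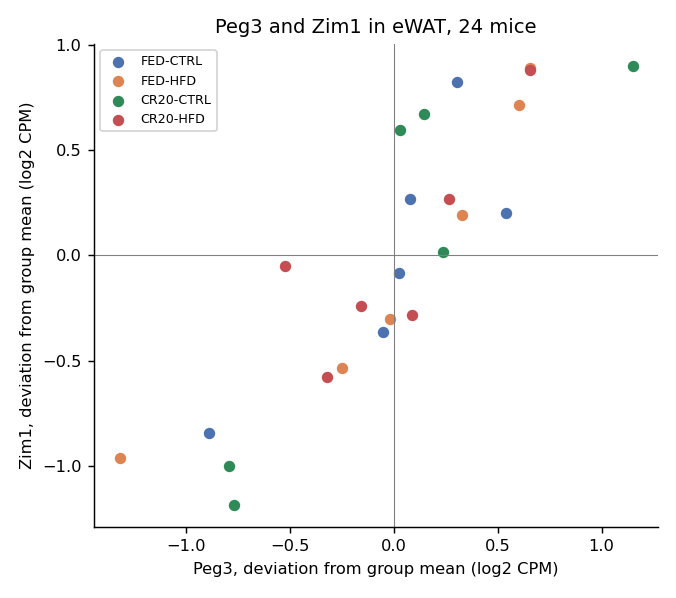
Each point is an eWAT library, with the log2 CPM of Peg3 (horizontal axis) and Zim1 (vertical axis) given as the deviation from the mean of its group. Colours are the 4 groups. Points of all 4 groups run along the diagonal, with an r of 0.87 over 24 mice.

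Endothelial markers moved with both genes from mouse to mouse. All 5 markers listed (Pecam1, Cdh5, Kdr, Tie1 and Emcn) were tested in eWAT and none was at 0. Their summed level ran from 301 to 642 CPM in FED-CTRL, from 152 to 379 in FED-HFD, from 249 to 715 in CR20-CTRL and from 357 to 552 in CR20-HFD, with medians of 368, 340, 363 and 494 CPM in that order. Within groups its r was 0.66 with Peg3 and 0.68 with Zim1, and 0.61 and 0.69 without the 4 libraries. Between CR20-HFD and CR20-CTRL the markers differed by a log2FC of -0.19 to 0.19, and between CR20-CTRL and FED-CTRL by 0.09 to 0.28. None had an unadjusted p under 0.05 by edgeR, where 6.03% and 7.39% of all genes did. Between CR20-HFD and FED-HFD all 5 were higher, by 0.46 to 0.97, with Pecam1 and Emcn at an unadjusted p under 0.05, as were 29.8% of all genes. Between FED-HFD and FED-CTRL all 5 were lower, with log2FC of -0.61 to -0.34. Kdr and Emcn were at an unadjusted p under 0.05, as were 25.7% of all genes. With the endothelial level taken out along with the group means, r between Peg3 and Zim1 was 0.77. Other marker sums had within-group r with Peg3 and Zim1 of -0.50 and -0.47 (stromal progenitor), -0.44 and -0.67 (mesothelial), -0.54 and -0.32 (macrophage), 0.38 and 0.09 (adipocyte) and 0.18 and 0.46 (epididymis and testis). Leaving out the 4 libraries, these were -0.29 and -0.35, -0.56 and -0.66, -0.33 and -0.22, 0.18 and 0.07, and -0.08 and -0.01 in the same order. In bulk tissue a change in the share of a cell type cannot be told apart from a change of RNA per cell, and the part of these cell types in the results was not tested.

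In liver only Peg3 passed the filter, and its level split with the mitochondrial share of the library. The 6 libraries with a low share, FED-CTRL mice 14 and 41, FED-HFD mouse 11, CR20-CTRL mice 4 and 5 and CR20-HFD mouse 32, held 3.57 to 9.92 CPM. The other 18 held 18.7 to 55.0 CPM, so that the 2 sets did not overlap. Among those 18 libraries r of Peg3 with the mitochondrial share was 0.09. The same 6 libraries lay lower on a measure of long against short transcripts. The median deviation of the longest 10% of protein-coding genes less that of the shortest 10% was -0.75 to -0.10 on the log2 scale in them, against -0.18 to 0.63 in the other 18, and the ranges overlapped slightly. The r of Peg3 with this measure was 0.87 over all 24 livers, within groups, and 0.03 among the 18. With the measure as a covariate the log2FC of CR20-HFD against CR20-CTRL was 1.03 ± 0.29 (SE) (adjusted p = 0.0772, edgeR). That of FED-HFD against FED-CTRL was 0.95 ± 0.29 (SE) (adjusted p = 0.195, edgeR). Maternal restriction gave 0.19 on the control diet and 0.27 on the high fat diet, and no comparison was called. What lies behind this relation to Peg3, whose exons cover 13663 bases, was not tested.

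**Figure D4:**
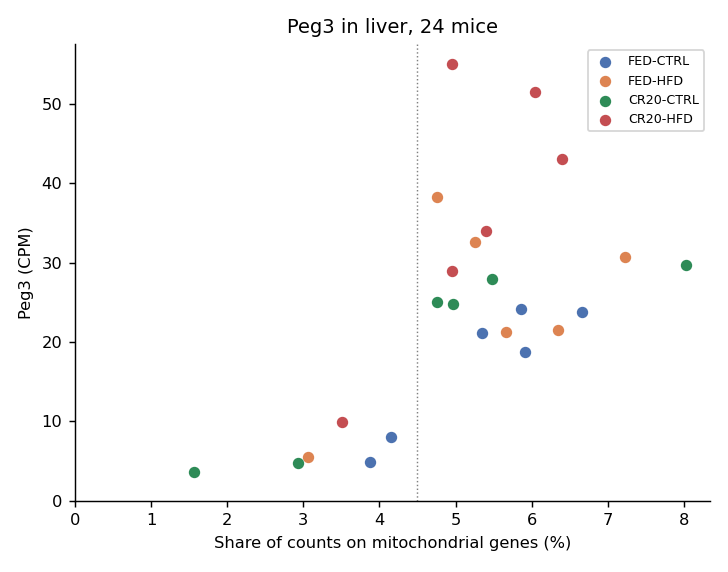
Peg3 in liver in CPM (vertical axis) against the percentage of counts on mitochondrial genes (horizontal axis). Each point is a mouse, colours are the 4 groups, and the dotted line marks 4.5%. The 6 libraries to the left of the line hold at most 9.92 CPM, and the 18 to the right hold at least 18.7.

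Over all 24 livers, Peg3 ranged from 4.86 to 24.1 CPM in FED-CTRL, with a median of 19.9, and from 5.54 to 38.4 in FED-HFD, with a median of 26.1. It ranged from 3.57 to 29.7 CPM in CR20-CTRL, with a median of 24.9, and from 9.92 to 55.0 in CR20-HFD, with a median of 38.6. All groups overlapped, and no comparison was called. The log2FC of CR20-HFD against CR20-CTRL was 0.94 ± 0.50 (SE) (adjusted p = 0.545, edgeR), where 0.522% of genes were called, and that of FED-HFD against FED-CTRL was 0.58 ± 0.50 (SE) (adjusted p = 1.00, edgeR), where 0.109% were called. For maternal restriction it was 0.20 ± 0.50 (SE) on the control diet (adjusted p = 0.999, edgeR) and 0.56 ± 0.49 (SE) on the high fat diet (adjusted p = 1.00, edgeR), where 0% of genes were called in each. Between CR20-HFD and CR20-CTRL, Peg3 differed by 3.06, -0.34 and 0.69 on the log2 scale within the 3 ranges of animal numbers. The first of these rests on CR20-CTRL mice 4 and 5 and the second on CR20-HFD mouse 32, all of low mitochondrial share. Without the 6 libraries of low share no CR20-CTRL mouse was left in the first range, and the other ranges gave 0.89, from 1 mouse in each group, and 0.69.

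Without the 6 libraries of low mitochondrial share the spread was smaller, and still no comparison was called. Those 6 libraries also held the lowest Peg3 levels, and the limit was set after the data were seen. A smaller spread and smaller SE were thus bound to follow, and nothing is read from them. The medians were then 22.5 CPM in FED-CTRL (n = 4), 30.7 in FED-HFD (n = 5), 26.5 in CR20-CTRL (n = 4) and 43.1 in CR20-HFD (n = 5). The log2FC of CR20-HFD against CR20-CTRL was 0.65 ± 0.18 (SE) (adjusted p = 0.127, edgeR) and that of CR20-HFD against FED-HFD was 0.53 ± 0.17 (SE) (adjusted p = 0.233, edgeR). That of FED-HFD against FED-CTRL was 0.40 ± 0.19 (SE) (adjusted p = 0.399, edgeR) and that of CR20-CTRL against FED-CTRL was 0.29 ± 0.19 (SE) (adjusted p = 0.933, edgeR). Peg3 in liver thus stood higher in both high fat groups than in their control diet groups by point estimate, without a call after adjustment over all genes. The genes nearest to Peg3 over all 24 livers, 4932442E05Rik, Setd5, Prdm9, Mdm4, Zfp384 and Golga4, were ranked across the 2 sets of libraries, and within the 18 their r with Peg3 was 0.79, 0.46, 0.67, 0.69, 0.64 and 0.20.

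In pituitary, the tissue with the highest levels, the members differed little between groups. Peg3 ranged from 321 to 520 CPM in FED-CTRL (median 454), from 340 to 447 in FED-HFD (median 423), from 370 to 589 in CR20-CTRL (median 496) and from 322 to 480 in CR20-HFD (median 420). All groups overlapped. The log2FC of CR20-HFD against CR20-CTRL was -0.27 ± 0.12 (SE) (adjusted p = 0.630, edgeR), opposite in sign to the difference in eWAT and in liver, and 0% of genes were called. The level of Peg3 in pituitary moved with the measure of long against short transcripts at r = 0.65 within groups, and with that measure as a covariate the log2FC was -0.10. The other 3 comparisons of Peg3 gave a log2FC of -0.09 for FED-HFD against FED-CTRL, 0.18 for CR20-CTRL against FED-CTRL and -0.00 for CR20-HFD against FED-HFD, with adjusted p of 0.861, 0.422 and 0.997 by edgeR, and 0% of genes were called in each.

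Usp29, the protease gene, had the lowest unadjusted p among the member tests by edgeR, and Zim1 between FED-HFD and FED-CTRL in eWAT had the lowest by voom with quality weights. It ranged from 10.9 to 17.1 CPM in FED-CTRL, with a median of 14.5, and from 13.5 to 22.0 in CR20-CTRL, with a median of 17.7. The groups overlapped, with 3 CR20-CTRL mice above all FED-CTRL mice. The log2FC was 0.35 ± 0.12 (SE) (adjusted p = 0.153, edgeR), a 1.27-fold difference that did not pass, in a comparison where 17.3% of genes had an unadjusted p under 0.05. By an exact permutation test of the mice it was p = 0.0433 (two-sided, n = 6 and 6), the only one of 25 exact tests under 0.05. On the high fat diet Usp29 ranged from 12.6 to 18.3 CPM in FED-HFD, with a median of 15.1, and from 15.6 to 20.7 in CR20-HFD, with a median of 17.5. There the log2FC was 0.22 ± 0.12 (SE) (adjusted p = 0.774, edgeR). Against diet Usp29 gave 0.11 in FED mice and -0.02 in CR20 mice (adjusted p = 0.831 and 0.979, edgeR).

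Zim1 in pituitary ranged from 10.7 to 27.5 CPM over all 24 mice, with group medians of 17.3 in FED-CTRL, 20.4 in FED-HFD, 15.5 in CR20-CTRL and 15.0 in CR20-HFD. All groups overlapped. Its log2FC was 0.11 for FED-HFD against FED-CTRL, -0.06 for CR20-CTRL against FED-CTRL, -0.29 for CR20-HFD against FED-HFD and -0.12 for CR20-HFD against CR20-CTRL, with adjusted p between 0.823 and 0.909 by edgeR. Over the 11 comparisons tested in the 3 tissues, the members that passed the filter gave 22 tests, of which edgeR called 0, DESeq2 called 0 and limma's voom with quality weights called 1, and 2 had an unadjusted p under 0.05 by edgeR, Usp29 between CR20-CTRL and FED-CTRL and Peg3 between CR20-HFD and CR20-CTRL, both in pituitary. As background, the share of all genes with an unadjusted p under 0.05 was 25.7% for FED-HFD against FED-CTRL, 7.39% for CR20-CTRL against FED-CTRL and 29.8% for CR20-HFD against FED-HFD in eWAT. In the order FED-HFD against FED-CTRL, CR20-CTRL against FED-CTRL, CR20-HFD against FED-HFD and CR20-HFD against CR20-CTRL it was 6.66%, 2.17%, 3.58% and 9.57% in liver and 9.64%, 17.3%, 6.77% and 7.28% in pituitary.

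In pituitary no pair of members had a correlation that passed. There r was 0.24 between Peg3 and Zim1 (permutation p = 0.3, adjusted 0.6), with rho of 0.21 (permutation p = 0.38, adjusted 0.75) and r of 0.15 without mice 4 and 24, which lie farthest from the median. With the animal-number range also taken out r between Peg3 and Zim1 was 0.54, with a permutation p under 0.05. Between Peg3 and Usp29 r was 0.33 (permutation p = 0.17, adjusted 0.52) with rho of 0.27 (permutation p = 0.26, adjusted 0.75), and between Zim1 and Usp29 it was 0.06 (permutation p = 0.81, adjusted 0.9) with rho of 0.04 (permutation p = 0.86, adjusted 0.94). By group r ran both ways, from -0.58 in CR20-HFD to 0.81 in FED-CTRL between Peg3 and Zim1 and from -0.71 in CR20-HFD to 0.89 in CR20-CTRL between Peg3 and Usp29, each over 6 mice. The correlations of eWAT and pituitary were not tested against each other. Zim1 ranked 4048 and Usp29 ranked 2717 among 16656 genes by r with Peg3 in pituitary. The highest were Fam13b at 0.85, Ncor1, a nuclear receptor corepressor, at 0.82, Dnaaf9, Tmed8 and Dennd5b at 0.80 each, and Rab22a, a small GTPase of endosomes, at 0.79. Levels in the eWAT and the pituitary of the same mouse gave no correlation that passed, with r of -0.03 for Peg3 (permutation p = 0.9, adjusted 0.9), with rho of -0.02 (permutation p = 0.94, adjusted 0.94), and 0.10 for Zim1 (permutation p = 0.64, adjusted 0.9), with rho of 0.10 (permutation p = 0.65, adjusted 0.94). Without the 2 mice farthest from the median these were -0.06 and 0.11.

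The genes around the domain are given beside the members, which were chosen for their values in this contrast, so that no difference between members and neighbours is read from it. The annotation has 60 genes whose lower coordinate lies within 500 kb of that of Peg3, members included, and 50 of them were in the count table. Beside the members, 8 were tested in eWAT, 7 in liver and 11 in pituitary, namely Zfp667, Zfp583, Zfp582, Zfp78, Zfp28, Smim17, Zfp954, Gm44697, Zfp773, Zfp418 and Zfp772, most of them zinc-finger genes. Their log2FC between CR20-HFD and CR20-CTRL in eWAT ran from 0.01 (Zfp418) to 0.35 (Zfp773), with a median of 0.05, and all 8 were above 0. In the 20 other eWAT libraries it ran from -0.04 to 0.30, with a median of 0.20. None was called in any of the 4 comparisons of any tissue by edgeR, and 11 of their tests, which is 10.6%, had an unadjusted p under 0.05, 0 of them in this contrast. Over all genes that share ran from 2.17% to 29.8%, by comparison. Their r with Peg3 in eWAT was between -0.49 and 0.33, and between -0.48 and 0.45 without the 4 libraries.

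**Figure D5:**
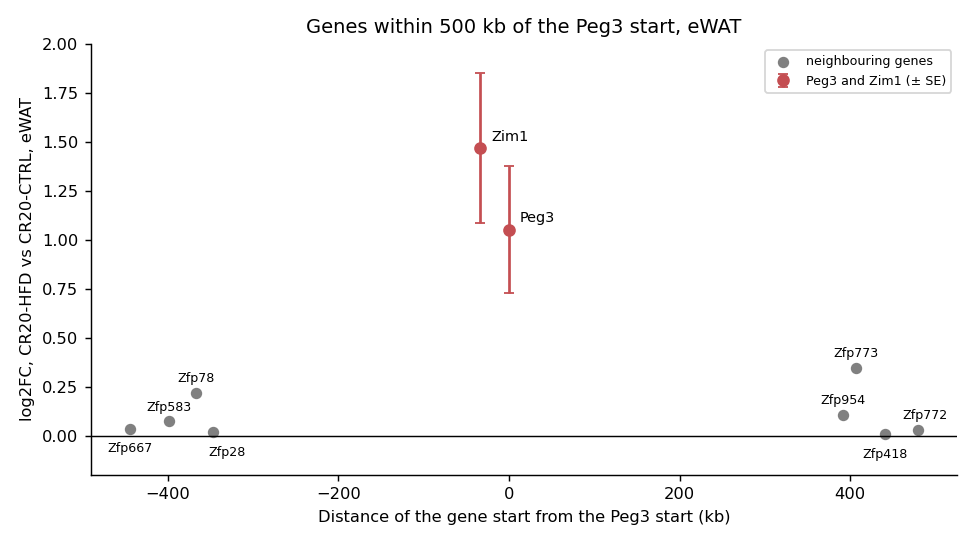
Log2FC between CR20-HFD and CR20-CTRL in eWAT (vertical axis, edgeR) of the genes tested within 500 kb of Peg3, by the distance of their start from that of Peg3 in kb (horizontal axis). Red points with SE bars are Peg3 and Zim1, which this contrast chose, and grey points are the 8 other genes, which lie between 0.01 and 0.35.

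Imprinted genes listed from elsewhere in the genome were called in some comparisons of eWAT and liver. None was called in pituitary, where 0% of all genes were called in each comparison. Peg3 belongs to a set of co-expressed imprinted growth genes known as the imprinted gene network, of which 25 other genes were listed and 21 were tested in eWAT. Between CR20-HFD and CR20-CTRL in eWAT 0 of 21 were called by edgeR (0% of all genes were) and 1 had an unadjusted p under 0.05 (6.03% of all genes did). The median log2FC was 0.01 beside -0.02 over all genes, from -2.96 for Slc38a4, an amino acid transporter, to 0.75 for Zdbf2, a paternally expressed zinc-finger gene. Between FED-HFD and FED-CTRL in eWAT 3 of 21 were called, where 8.01% of all genes were. Of these 2 rose, Gatm, the first enzyme of creatine synthesis, by a log2FC of 0.83 (adjusted p = 0.00596, edgeR) and Igf2r, the receptor that clears IGF2, by 0.60 (adjusted p = 0.0401, edgeR). Plagl1, a zinc-finger regulator of the network, fell by 1.07 on the log2 scale (adjusted p = 0.0195, edgeR). Between CR20-HFD and FED-HFD the same 3 were called in the opposite direction, with log2FC of -0.92 for Gatm, -0.66 for Igf2r and 0.87 for Plagl1, in a comparison that shares the FED-HFD mice and where 9.73% of all genes were called. Without the 4 libraries that stood apart, the calls were Plagl1 alone at -0.87 between FED-HFD and FED-CTRL, and Gatm at -0.73 and Nnat, a small membrane protein, at 0.75 between CR20-HFD and FED-HFD. The genes no longer called kept their directions. Between FED-HFD and FED-CTRL Gatm was at 0.575 (adjusted p = 0.00674, edgeR), just under the limit of 0.58, and Igf2r at 0.36 (adjusted p = 0.111, edgeR), and between CR20-HFD and FED-HFD Igf2r was at -0.37 (adjusted p = 0.0873, edgeR) and Plagl1 at 0.69 (adjusted p = 0.0573, edgeR). The median log2FC of the list was 0.02 and 0.10 in these 2 comparisons, beside -0.00 and 0.02 over all genes. Between CR20-CTRL and FED-CTRL 0 were called by edgeR, as were 0% of all genes, and 2 had an unadjusted p under 0.05, where 7.39% of all genes did.

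In liver, where 18 of the list were tested, Meg3, a maternally expressed long noncoding RNA, rose in FED-HFD against FED-CTRL by a log2FC of 3.53, and Meg3 and Rian, a second RNA of the same domain, rose in CR20-HFD against CR20-CTRL by 4.01 and 3.69, where 0.109% and 0.522% of all genes were called. Rian was also higher in FED-HFD than in FED-CTRL, by 2.97 ± 0.67 (SE), without a call (adjusted p = 0.102, edgeR). Without the 6 liver libraries of low mitochondrial share only Meg3 in CR20-HFD against CR20-CTRL was called, at 3.78 (adjusted p = 0.0240, edgeR). The other values were close to those over all livers, with Rian at 3.65 (adjusted p = 0.0596, edgeR) and Meg3 in FED-HFD against FED-CTRL at 3.46 (adjusted p = 0.117, edgeR). In the other liver comparisons and in the 4 pituitary comparisons, where 22 were tested, 0 were called by edgeR, and 0% of all genes were called in each. At most 6 were at an unadjusted p under 0.05, and the share of all genes at that limit was up to 17.3%.

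Regulators of imprinted domains, cofactors of zinc-finger proteins and partners of the PEG3 protein were counted from a list of 13, among them Yy1, the zinc-finger cofactor Trim28, the imprint keepers Zfp57 and Zfp445, the DNA methyltransferases, and Siah1a, Siah1b and Traf2, which are known to bind PEG3. All 13 were tested in eWAT and in liver and 12 in pituitary. Between CR20-HFD and CR20-CTRL in eWAT 0 were called by edgeR, as were 0% of all genes, and 0 had an unadjusted p under 0.05, where 6.03% of all genes did. Between FED-HFD and FED-CTRL in eWAT 3 of 13 rose, where 8.01% of all genes were called in either direction, Dnmt3a, a methyltransferase that sets new marks, by a log2FC of 1.18, Uhrf1, which brings Dnmt1 to copied DNA, by 0.98 and Dnmt1, the maintenance methyltransferase, by 0.75. Between CR20-HFD and FED-HFD these 3 fell, in a comparison that shares the FED-HFD mice and where 9.73% of all genes were called, with log2FC of -1.37 for Dnmt3a, -0.78 for Uhrf1 and -0.80 for Dnmt1. Macrophage markers moved with them, with a median summed level of 1442 CPM in FED-CTRL, 2946 in FED-HFD, 1485 in CR20-CTRL and 1228 in CR20-HFD, all 8 markers being present, and their part in these differences was not tested. Without the 4 libraries that stood apart Dnmt3a alone was called in each, at 0.78 and -0.99. Uhrf1 was then at 0.65 and -0.50 and Dnmt1 at 0.39 and -0.46. The median log2FC of the list was 0.08 and -0.02, beside -0.00 and 0.02 over all genes. Between CR20-CTRL and FED-CTRL 0 were called by edgeR, as were 0% of all genes, and 1 had an unadjusted p under 0.05, where 7.39% of all genes did. No member of the list was called in liver, where 0% to 0.522% of all genes were called by comparison, or in pituitary, where 0% were. At most 2 had an unadjusted p under 0.05 in a comparison, and the share of all genes at that limit ran from 2.17% to 17.3%.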

How the data were processed

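The values were the whole-number counts per Ensembl gene that the authors deposited for 72 libraries. The authors trimmed reads with Trimmomatic, aligned them with STAR to GRCm39 and counted them with featureCounts of Subread; versions and the strand setting are not given in the sources used here. Liver RNA was extracted by another method than RNA of eWAT and pituitary, so kit and tissue cannot be told apart. Symbols were matched for 54749 of 55416 genes.

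Each tissue was fitted by edgeR 4.0.16 (filterByExpr, TMM, quasi-likelihood test, a mean for each of 4 groups, Benjamini-Hochberg over all genes, R 4.3.3), with calls at an adjusted p under 0.055 and an absolute log2FC of at least 0.58, and tissues in a fit of 72 libraries. The study's methods give limma's voom (3.58.1), which was an alternative here beside DESeq2 1.42.0, its size factors in edgeR, no filter, a limit of 1 CPM in 6 libraries, fits of just the compared groups, a covariate for the range of animal numbers, and fits without each mouse. Scripts were tested on simulated data, where 195 of 200 genes changed by a log2FC of 2 were called in eWAT between CR20-HFD and CR20-CTRL among 15949 genes, beside 6 wrong calls. In liver and pituitary 194 and 200 of 200 were called among 13746 and 16634 genes, with 9 wrong calls in each, and between CR20-CTRL and FED-CTRL, simulated without change, 1 wrong call was made in liver and 0 in eWAT and in pituitary. The animal number marks the same mouse in each tissue, by the labels.

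The members and lists were chosen with earlier results of these data known. Named genes were the members, all tested genes within 500 kb of Peg3, the 6 genes with the highest r with Peg3 in each tissue, and the listed genes called or at the extremes of a comparison. The limits that set 4 eWAT and 6 liver libraries apart, and the alternatives built on them, on transcript length and on endothelial level, were chosen after seeing the data. RPKM used counts and the summed exon length of a GENCODE annotation. This is not the release that the paper names for its reads, so lengths can differ from those of the counted genes. Of 72 libraries, 0 pairs within a group were identical, and 0 columns of per-sample values were left unmapped. Total counts per library set the precision, and floors cover counting error only.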

Additional observations from a re-analysis of the deposited data

Results flagged for a closer look

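The liver library of FED-HFD mouse 11 lay far below the other 5 mice of its group for Peg3, at 2.51 on the log2 CPM scale where the group median was 4.69. Its gap to the nearest mouse was 0.694 of the whole range of the group. It was 1 of the 6 liver libraries with a low share of mitochondrial counts. No other of the 24 groups of 6 mice examined over members and tissues had a gap above the limit of 0.625. CR20-HFD mouse 32 in liver, also of low share, fell just short of that limit for Peg3. Chance gives such a gap in about 1 in 20 independent groups. The 24 groups share mice and libraries, so nothing is read from the count of 1. The part of RNA quality in this value was not tested.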

How the results depend on the processing

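The differences of Peg3 and Zim1 between tissues stayed called in every alternative. With the animal number as a replicate block the log2FC between pituitary and eWAT was 1.46 for Peg3, 1.84 for Zim1 and 5.80 for Usp29, that of Peg3 was 3.72 between pituitary and liver and 2.26 between eWAT and liver, and no call changed. No paired analysis was possible between the diet or dam groups because they share no animal number. The number of members called between FED-HFD and FED-CTRL in eWAT was 1 by voom with quality weights and 0 otherwise. The values that changed sign belonged to log2FC of at most 0.20 in size, or to correlations between tissues or of Zim1 with Usp29, and the cause was not tested. With a covariate for the range of animal numbers the log2FC of CR20-CTRL against FED-CTRL was -0.0905 for Peg3 in liver and 0.0681 for Zim1 in pituitary, which voom put at 0.0207, and that of Usp29 between CR20-HFD and CR20-CTRL in pituitary was 0.00596. With the long-minus-short measure as a covariate the latter was 0.0505, and Peg3 between CR20-CTRL and FED-CTRL in pituitary was -0.00600. With each mouse left out in turn the pituitary log2FC of Zim1 ran from -0.190 to 0.0925 for CR20-CTRL against FED-CTRL and from -0.245 to 0.00967 for CR20-HFD against CR20-CTRL, that of Peg3 for CR20-HFD against FED-HFD from -0.0546 to 0.0575, and that of Usp29 for CR20-HFD against CR20-CTRL from -0.0912 to 0.0568. With the range of animal numbers taken out r was 0.54 between Peg3 and Zim1 in pituitary, 0.0139 for Peg3 and -0.189 for Zim1 between eWAT and pituitary. Without the 4 eWAT libraries that stood apart r of Peg3 between those tissues was 0.189. With each mouse left out it ran from -0.149 to 0.0751 for Peg3, from -0.00531 to 0.213 for Zim1, and from -0.0731 to 0.266 between Zim1 and Usp29 in pituitary. Apart from fits without a mouse and from the contrast that chose the members, 6 of 186 alternative log2FC values of the members changed sign and 1 became a call; since edgeR called no member, no call could be lost. Depth limits Usp29 in eWAT, at 1 to 22 counts a library, and Zfp264 in every tissue.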
